A study of Homo sapiens with 46 samples.

Results

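Mutually exclusive exon events were examined in 4 splicing tables, 1 table for each experiment. Each such event holds a pair of neighbouring exons, of which the splicing caller, rMATS, counted mRNAs that carry either the first (5′) or the second (3′) exon between the same flanking exons. All events of this type were taken, which gave 53727 distinct events among 298384 events of all types. They were 28832 of the 179118 events listed for the 200 nM experiment, 20547 of 139012 for the 50 nM experiment, 36219 of 218608 for the siRNA experiment and 18907 of 138022 for the xenograft. They lay in 9844 genes and formed 46571 distinct exon pairs. In all, 7527 events were listed in all 4 tables and 26568 in a single table.

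The study lowered TRA2B with a splice-switching antisense oligonucleotide, ASO-1570, or with siRNA-TRA2B. In the first experiment MDA-MB231 breast carcinoma cells and U87MG glioblastoma cells were transfected with ASO-1570 at 200 nM or with the control oligonucleotide ASO-CTL at 200 nM. In the second both lines received ASO-1570 or ASO-CTL at 50 nM, and in the third siRNA-TRA2B or siRNA-CTL at 10 nM. RNA was taken after 48 h from 3 libraries per group, so that all line groups, controls included, had been transfected by lipofection. In the fourth, breast tumours of a patient-derived xenograft (PDX) received ASO-1570 or ASO-CTL by injection into the tumour at 50 mg/kg, 3 times weekly for 4 weeks, with 5 libraries per group. The labels call the host mice immunocompetent. Nothing in the labels says that libraries of a group came from separate cultures, so the p-values of the lines measure the spread between these libraries, which may be technical. ASO and siRNA groups came from separate experiments with separate controls.

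Mutually exclusive exons let a gene exchange a stretch of its protein while keeping the rest, as in PKM, in SNAP25 and in the tropomyosins, and many of the known pairs arose by duplication of an exon. TRA2B and its paralog TRA2A are RNA-binding relatives of the SR proteins that bind GAA-rich sequence in exons and favour the inclusion of the exons that hold it. Both genes also carry poison exons, whose inclusion leads to decay of their own mRNA.

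The exons of 6 pairs are shown with GAA on the sense strand in capitals. The sequences are those of the GRCh38 exons as spliced in GENCODE 29 transcripts, 5′ to 3′. SNAP25 and DNM2 are shown because they were the textbook pairs, with like exons, that changed at both doses in U87MG cells. SNAP25 encodes a synaptic SNARE protein and DNM2 the GTPase dynamin 2. The exons of SNAP25 were 118 bases each and 73.7% identical, and those of DNM2 were 139 bases each and 74.8% identical.
SNAP25 first exon (GRCh38, chr20:10292882-10292999, plus strand): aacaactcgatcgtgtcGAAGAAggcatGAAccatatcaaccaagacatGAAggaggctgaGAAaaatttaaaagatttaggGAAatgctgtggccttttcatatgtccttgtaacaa
SNAP25 second exon (GRCh38, chr20:10293161-10293278, plus strand): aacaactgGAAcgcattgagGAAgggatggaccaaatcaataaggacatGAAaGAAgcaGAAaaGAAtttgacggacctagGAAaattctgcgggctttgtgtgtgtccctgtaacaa
DNM2 first exon (GRCh38, chr19:10796061-10796199, plus strand): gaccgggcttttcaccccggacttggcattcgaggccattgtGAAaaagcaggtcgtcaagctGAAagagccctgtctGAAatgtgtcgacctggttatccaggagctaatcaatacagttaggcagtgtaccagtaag
DNM2 second exon (GRCh38, chr19:10797380-10797518, plus strand): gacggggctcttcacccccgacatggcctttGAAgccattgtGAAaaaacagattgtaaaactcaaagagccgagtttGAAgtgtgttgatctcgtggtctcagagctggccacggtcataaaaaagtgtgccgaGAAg
YY1AP1, AFG1L, RAPGEF2 and ARHGAP29 are shown because their events changed in all 4 oligonucleotide comparisons. Their exons differed in length.
YY1AP1 first exon (GRCh38, chr1:155680416-155680456, minus strand): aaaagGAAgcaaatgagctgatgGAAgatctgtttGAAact
YY1AP1 second exon (GRCh38, chr1:155679409-155679512, minus strand): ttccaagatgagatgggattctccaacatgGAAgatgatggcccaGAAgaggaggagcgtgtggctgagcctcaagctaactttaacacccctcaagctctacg
AFG1L first exon (GRCh38, chr6:108346988-108347039, plus strand): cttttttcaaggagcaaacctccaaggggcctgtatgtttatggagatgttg
AFG1L second exon (GRCh38, chr6:108355654-108355755, plus strand): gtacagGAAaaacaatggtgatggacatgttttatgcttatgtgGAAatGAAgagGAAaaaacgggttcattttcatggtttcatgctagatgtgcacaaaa
RAPGEF2 first exon (GRCh38, chr4:159186642-159186712, plus strand): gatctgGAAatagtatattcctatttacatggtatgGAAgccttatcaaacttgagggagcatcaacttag
RAPGEF2 second exon (GRCh38, chr4:159193200-159193256, plus strand): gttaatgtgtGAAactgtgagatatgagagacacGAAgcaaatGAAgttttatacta
ARHGAP29 first exon (GRCh38, chr1:94201720-94201857, minus strand): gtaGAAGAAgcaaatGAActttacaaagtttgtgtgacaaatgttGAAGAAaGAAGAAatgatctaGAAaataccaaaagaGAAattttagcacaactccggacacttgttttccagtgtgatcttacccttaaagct
ARHGAP29 second exon (GRCh38, chr1:94189926-94190083, minus strand): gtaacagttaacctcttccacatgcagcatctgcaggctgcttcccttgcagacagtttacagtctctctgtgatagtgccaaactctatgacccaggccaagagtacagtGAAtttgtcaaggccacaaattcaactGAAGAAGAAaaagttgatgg
GAA occurred 6 times in the first and 7 times in the second SNAP25 exon, and 3 and 4 times in those of DNM2. It occurred 3 times in the first exon of YY1AP1 and 9 times in that of ARHGAP29, while the first exon of AFG1L held none. Such matches are common: of all exons of these events with a length within 10% of the printed exon, 71.8% (for the 41 bases of the first YY1AP1 exon) to 94.6% (for the 158 bases of the second ARHGAP29 exon) held at least 1 GAA. GAA overlaps no other motif that was searched, and a match is not a measured binding site.

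The value of an event is its PSI, a fraction between 0 and 1 that the authors deposited for each library. A PSI of 1 means that only the first exon was counted and 0 that only the second was. This reading was checked against single cassette exon events of the same exons. Where these differed by at least 0.3, PSI lay on the side of the first exon in 272 of 272 plus-strand and 346 of 346 minus-strand events in U87MG cells with ASO-CTL at 200 nM. The tables hold no read counts, so the depth behind a single PSI is unknown. A value was present in every library for 99% of the events in the 200 nM table, 98.8% in the 50 nM table, 37% in the siRNA table and 91.8% in the xenograft table.

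The name of the event type was set against the gene annotation, and for most events the name and the annotation did not match. In 41019 events (76.3%) at least 1 GENCODE 29 transcript splices both exons directly to each other, which is called a joined pair here. In 10272 (19.1%) a transcript holds both exons with another exon between them. Only 1708 events (3.18%, 985 genes) had 2 annotated exons that no annotated transcript holds together, called exclusive pairs here, and in 728 (1.35%) an exon was not annotated. The PSI values followed the same division. In U87MG cells with ASO-CTL at 200 nM, 46.9% of the tested joined events had a mean PSI between 0.4 and 0.6, where a gene whose mRNAs carry both exons would lie, against 16.8% of the exclusive ones. In MDA-MB231 cells with ASO-CTL at 200 nM these shares were 49.8% and 15.6%. The exon pairs were also mostly unlike. Among the 1305 exclusive pairs with exons of 30 to 300 bases, 101 (7.74%, 90 genes) were at least 60% identical, against 61 (4.07%) of 1500 joined pairs drawn at random from 31912 of these lengths. The median exon lengths were 114 and 115 bases, and the exons of 37.6% of the events had the same length modulo 3.

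TRA2B, the targeted gene, was lower in all 6 line comparisons. In edgeR's quasi-likelihood test the log2 fold changes were −0.87 (MDA-MB231) and −1.03 (U87MG) with 200 nM ASO-1570, −0.76 and −1.13 with 50 nM, and −3.11 and −2.83 with siRNA-TRA2B. In the xenograft the log2 fold change was −0.16 (adjusted p = 0.707) after edgeR's scaling for composition, while per total counts TRA2B averaged 82.8 ± 48 CPM (gene counts scaled to the library's total) with ASO-1570 and 139 ± 49.4 CPM with ASO-CTL (SD, n = 5 each). Those means differ 1.68-fold, so the size of the xenograft difference depends on the scaling. The gene counts of a library summed to 259885034 to 356831838 at 200 nM, 78562645 to 112813820 at 50 nM, 74978304 to 111134596 with the siRNAs and 75338390 to 109589376 in the tumours. Mitochondrial genes took 1.73% to 3.16% of the counts in the lines, 22.8% to 75.3% in ASO-1570 tumours and 17.7% to 53.9% in ASO-CTL tumours. In the labels, glioblastoma is given as the cell type of MDA-MB231 too, except at 200 nM. EPCAM, an epithelial surface protein, had group means of 29.8 to 37.4 CPM in all MDA-MB231 groups against 0.427 to 0.643 in all U87MG groups, and OLIG2, a glial transcription factor, 0 to 0.00394 against 1.94 to 3.1. ESR1 was the epithelial marker that went the other way, with 0.00818 to 0.143 CPM against 0.44 to 1.08. KRT8, KRT18, KRT19, CDH1 and GATA3 were higher in MDA-MB231 groups, like EPCAM. Of the other glial markers S100B went with OLIG2, with 0 to 0.0113 CPM against 0.0621 to 0.129. GFAP, SOX2 and NES did not set the lines apart this way. GFAP had group means of 1.28 to 3.31 CPM in MDA-MB231 groups against 0.0627 to 1.65 in U87MG groups. SOX2 had at most 0.102 against 0.0889, and NES 14.8 to 37.4 against 13.1 to 41.9.

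ASO-1570 moved many of these events in U87MG cells and few in MDA-MB231 cells. An event was called when limma's adjusted p, over all event types of its table, was under 0.05 and the mean PSI differed by at least 0.10. With 200 nM ASO-1570, 2458 of 17516 tested events (14%, 1403 genes) were called in U87MG cells. Of these, 1399 had a higher and 1059 a lower share of the first exon. Over all event types 19.6% were called, 5.46% with a higher PSI and 14.1% with a lower. In MDA-MB231 cells 107 of 17881 (0.598%, 81 genes) were called, 69 higher and 38 lower, against 1.42% over all event types, 0.394% higher and 1.03% lower. With 50 nM, 1209 of 14062 (8.6%, 731 genes) were called in U87MG cells, 665 higher and 544 lower, against 13.8%, 3.83% higher and 9.94% lower. In MDA-MB231 cells 10 of 11898 (0.084%) were called, 7 higher and 3 lower, against 0.199%, 0.0766% higher and 0.122% lower. In each comparison the share of these events that was called was therefore below that of all event types. This was not particular to them. At 200 nM only cassette exons were above the share of all types, with 22.1% in U87MG cells and 1.88% in MDA-MB231 cells. Alternative splice sites and retained introns were below it too. The libraries of the ASO-1570 and ASO-CTL groups did not overlap for any called event. With 3 against 3 libraries the call threshold nearly fixes this, so it adds no support to a call. Of all tested mutually exclusive exon events in MDA-MB231 cells at 200 nM, 5.23% had groups that did not overlap and a difference of at least 0.10. A PSI difference of 0.5 or more was reached by 42, 6, 26 and 4 of the called events in these 4 comparisons.

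The counts in MDA-MB231 cells changed greatly when a single library was left out, whichever it was. At 200 nM the 107 calls became 4 to 9 when any library other than ASO-1570 replicate 3 was left out, and 214 without that library. At 50 nM the 10 calls became 0 to 3, and 29 without ASO-1570 replicate 3. In U87MG cells at 200 nM leaving out a library gave 1540 (without ASO-CTL replicate 2) to 2472 calls. At 50 nM it gave 395, 405 and 406 without ASO-CTL replicates 2, 1 and 3, 687 and 743 without ASO-1570 replicates 1 and 2, and 1362 without ASO-1570 replicate 3. Of the called values of the events chosen by the naming rule, 45 of 61 in U87MG cells at 200 nM and 32 of 48 at 50 nM were called in every fit that left out 1 library, and 2 of 22 (YY1AP1 and TTC25) and 0 of 9 in MDA-MB231 cells.

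Exclusive pairs were called somewhat more often than joined ones in U87MG cells. At 200 nM, 143 of 714 exclusive events (20%) were called there, against 1889 of 13745 joined ones (13.7%), and at 50 nM 79 of 658 (12%) against 938 of 11317 (8.29%). In MDA-MB231 cells at 200 nM these counts were 11 of 681 (1.62%) and 83 of 13796 (0.602%), and at 50 nM 0 of 600 and 10 of 9567 (0.105%). Exclusive pairs were therefore close to the share of all event types named above, 19.6% in U87MG cells at 200 nM. The classes differ in more than annotation: the median size of the PSI difference among all tested events was 0.0672 in exclusive and 0.041 in joined events there. The difference between the classes was not tested.

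**Figure D1:**
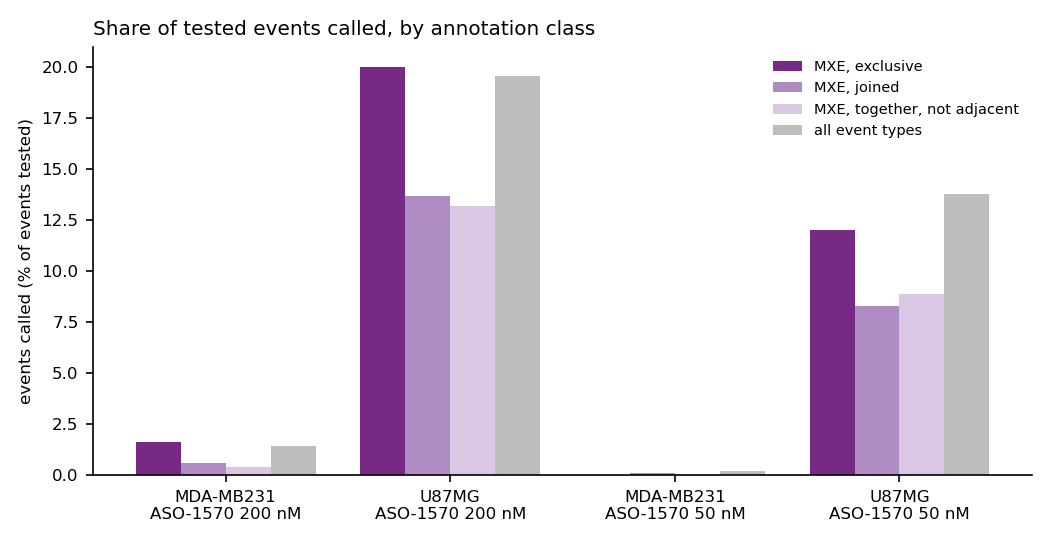
Percent of tested events called in the 4 oligonucleotide comparisons, as bars for mutually exclusive exon events by annotation class and for all event types of the same table. In U87MG cells at 200 nM the bars stand at 20% (exclusive), 13.7% (joined) and 19.6% (all event types); in MDA-MB231 cells at 200 nM all 3 lie under 2%.

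A set of 5 events was called in all 4 oligonucleotide comparisons, always in the same direction, in YY1AP1, RAPGEF2, AFG1L, ARHGAP29 and SCMH1. All 10 events called in MDA-MB231 cells at 50 nM were joined pairs, these 5 among them. In a joined pair an mRNA can carry both exons, so a change in PSI need not be an exchange of 1 exon for the other. YY1AP1, which encodes a partner of the transcription factor YY1, had PSI values of 0.865, 0.828 and 0.871 in U87MG cells with 200 nM ASO-1570, against 0.153, 0.144 and 0.147 with ASO-CTL. In MDA-MB231 cells they were 0.880, 0.935 and 0.844 with ASO-1570, against 0.166, 0.183 and 0.226 with ASO-CTL. The first exon thus held the larger share in every ASO-1570 library and the second in every ASO-CTL library. The differences were 0.707 ± 0.022 and 0.695 ± 0.034 (SE, limma adjusted p = 0.000134 and 0.00264). At 50 nM the ASO-1570 and ASO-CTL means were 0.880 ± 0.040 and 0.259 ± 0.035 in U87MG cells (SD, n = 3 each) and 0.825 ± 0.036 and 0.256 ± 0.101 in MDA-MB231 cells (limma adjusted p = 0.0011 and 0.0446).

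In the other 2 experiments the same YY1AP1 event had high values in both arms. Its mean PSI was 0.847 with siRNA-TRA2B and 0.849 with siRNA-CTL in MDA-MB231 cells, 0.916 and 0.906 in U87MG cells, and 0.911 with ASO-1570 and 0.886 with ASO-CTL in the xenograft, and the arms overlapped in each (limma adjusted p = 0.993, 0.911 and 0.815). All of these means lie near those of the lines with ASO-1570 and far from those with ASO-CTL. The single cassette event of the first exon gave the same order: it was included at 0.969 with 200 nM ASO-1570 and 0.243 with ASO-CTL in U87MG cells, and at 0.981 with siRNA-TRA2B and 0.973 with siRNA-CTL.

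RAPGEF2, which encodes a guanine nucleotide exchange factor for RAP GTPases, went the other way. Its PSI was 0.193, 0.264 and 0.304 in U87MG cells with 200 nM ASO-1570, against 0.906, 0.91 and 0.836 with ASO-CTL, and 0.279, 0.302 and 0.317 in MDA-MB231 cells, against 0.624, 0.782 and 0.736. At 50 nM it was 0.137, 0.124 and 0.067 in U87MG cells with ASO-1570, against 0.74, 0.824 and 0.837 with ASO-CTL, and 0.18, 0.188 and 0.154 in MDA-MB231 cells, against 0.647, 0.604 and 0.558. Every ASO-1570 library was below every ASO-CTL library of its line and dose. The differences were −0.630 and −0.415 at 200 nM and −0.691 and −0.429 at 50 nM (limma adjusted p = 0.000738, 0.0231, 0.000965 and 0.0154). Its second exon, as a cassette, was included at 1.000 with ASO-1570 and 0.299 with ASO-CTL in U87MG cells at 200 nM, and at 0.991 with siRNA-TRA2B and 1.000 with siRNA-CTL.

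ARHGAP29, which encodes a GTPase-activating protein for RHOA, had PSI values of 0.62, 0.609 and 0.667 in U87MG cells with 200 nM ASO-1570, against 0.158, 0.175 and 0.117 with ASO-CTL. In MDA-MB231 cells they were 0.522, 0.618 and 0.524 with ASO-1570, against 0.16, 0.163 and 0.2 with ASO-CTL. The groups were apart in both lines, with differences of 0.482 and 0.380 (limma adjusted p = 0.000504 and 0.0139), and at 50 nM the differences were 0.343 and 0.315 (limma adjusted p = 0.0153 and 0.0352). The cassette of the first exon was included at 1.000 with ASO-1570 and 0.292 with ASO-CTL in U87MG cells at 200 nM, against 1.000 with siRNA-TRA2B and 0.999 with siRNA-CTL in MDA-MB231 cells. The ARHGAP29 gene itself fell in all 4 comparisons, with log2 fold changes in edgeR of −1.47 (U87MG) and −1.23 (MDA-MB231) at 200 nM and −1.64 and −0.92 at 50 nM (adjusted p = 0.000108, 0.00121, 1.79e-05 and 0.00195).

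In AFG1L, which encodes a mitochondrial AAA ATPase, the ASO-1570 libraries were the ones that stood apart from the siRNA experiment. PSI was 0.902, 0.923 and 0.929 in U87MG cells with 200 nM ASO-1570, against 0.423, 0.384 and 0.37 with ASO-CTL, and 0.791, 0.702 and 0.695 in MDA-MB231 cells, against 0.359, 0.308 and 0.344. Every ASO-1570 library was above every ASO-CTL library of its line (differences 0.526 and 0.392, limma adjusted p = 0.000471 and 0.016). At 50 nM the differences were 0.501 and 0.438 (limma adjusted p = 0.00838 and 0.0467). In the siRNA experiment the means were 0.349 with siRNA-TRA2B and 0.404 with siRNA-CTL in U87MG cells, and 0.408 and 0.316 in MDA-MB231 cells. The second exon as a cassette was included at 0.204 with ASO-1570 and 0.983 with ASO-CTL in U87MG cells at 200 nM, and at 0.984 with siRNA-TRA2B and 0.98 with siRNA-CTL.

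SCMH1, which encodes a Polycomb group protein, had the smallest difference of the 5. PSI was 0.057, 0.075 and 0.041 in U87MG cells with 200 nM ASO-1570, against 0.249, 0.272 and 0.244 with ASO-CTL, and 0.079, 0.076 and 0.105 in MDA-MB231 cells, against 0.24, 0.281 and 0.294. The groups were apart, with differences of −0.197 and −0.185 (limma adjusted p = 0.00147 and 0.0284), and at 50 nM the differences were −0.216 and −0.198 (limma adjusted p = 0.00533 and 0.0468). With siRNA-TRA2B the mean was 0.251 against 0.231 with siRNA-CTL in U87MG cells and 0.215 against 0.279 in MDA-MB231 cells (limma adjusted p = 0.691 in MDA-MB231 cells). Of the 10 calls of these 5 events in MDA-MB231 cells, the 200 nM call of YY1AP1 alone held when each library in turn was left out; of the 10 in U87MG cells, only the 50 nM call of ARHGAP29 was lost, when any ASO-CTL library was left out.

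**Figure D2:**
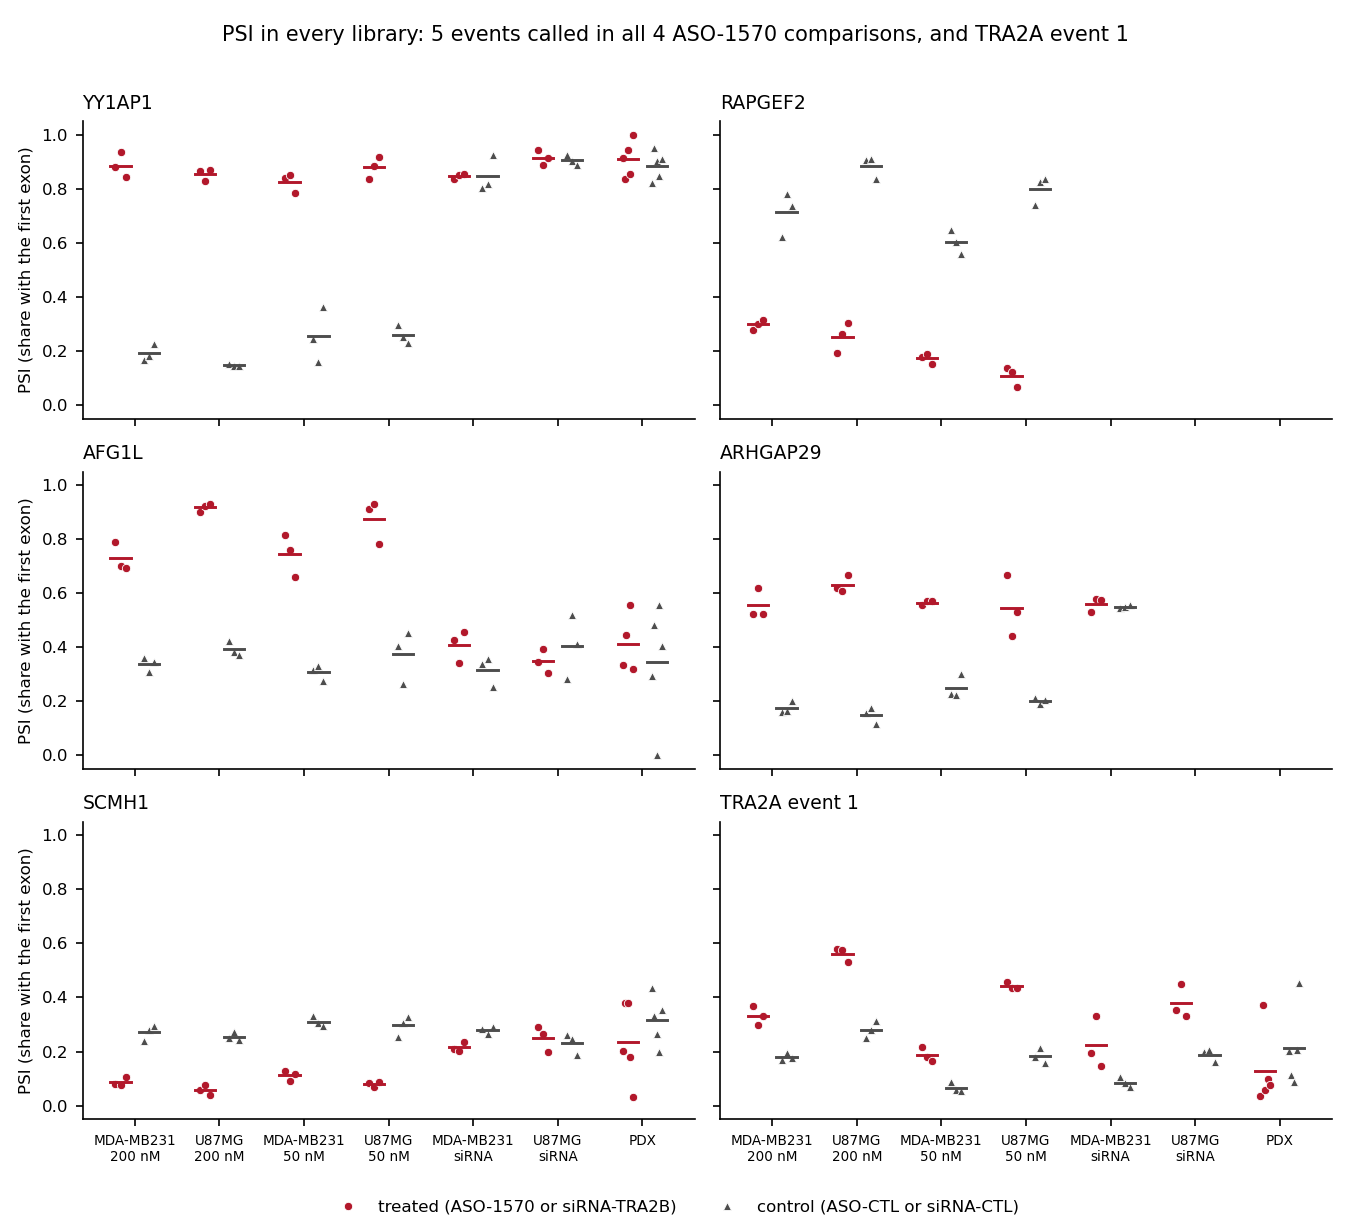
PSI (share of the first exon, from 0 to 1) of the 5 events called in all 4 oligonucleotide comparisons and of TRA2A event 1 in every library, with treated libraries as red circles left of their controls as gray triangles and group means as bars. YY1AP1 lies at 0.828 to 0.871 with 200 nM ASO-1570 and 0.144 to 0.153 with ASO-CTL in U87MG cells, while its siRNA and xenograft group means all lie between 0.847 and 0.916.

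Across all events, 2848 (1562 genes) were called in at least 1 comparison, 866 (540 genes) in the same direction in at least 2, and 0 in opposite directions. Both doses of ASO-1570 in U87MG cells shared 835 called events, which are 34% of the calls at 200 nM and 69.1% of those at 50 nM, and both lines at 200 nM shared 90, which are 84.1% of the MDA-MB231 calls and 3.66% of the U87MG calls. Of the U87MG calls at 200 nM, 1613 were tested with 50 nM in U87MG cells and 1577 (97.8%) had the same sign there, against 76.9% of all such events tested in both. In MDA-MB231 cells at 200 nM 1994 of 2217 (89.9%) had the same sign, against 65.2% of all. With siRNA-TRA2B in U87MG cells 548 of 1030 (53.2%) had it, against 52.2% of all, and in the xenograft 446 of 879 (50.7%), against 50.9%. Of the MDA-MB231 calls at 200 nM, 40 of 58 (69%) had the same sign with siRNA-TRA2B in MDA-MB231 cells, against 52.4% of all, 31 of 61 (50.8%) with siRNA-TRA2B in U87MG cells, against 51.3%, and 26 of 50 (52%) in the xenograft, against 56.5%. These shares were not tested.

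Several events were called in 3 of the comparisons. CASK, which encodes a membrane-associated scaffold protein, had a PSI of 0.806 ± 0.053 with 200 nM ASO-1570 and 0.10 ± 0.050 with ASO-CTL in U87MG cells and 0.867 ± 0.025 and 0.519 ± 0.013 in MDA-MB231 cells (SD, n = 3 each; limma adjusted p = 0.000527 and 0.0174). SCP2, which encodes a sterol carrier protein, had 0.818 ± 0.064 and 0.304 ± 0.028 in U87MG cells and 0.685 ± 0.056 and 0.302 ± 0.024 in MDA-MB231 cells (limma adjusted p = 0.0012 and 0.0168). RDH11, a retinol dehydrogenase gene, had 0.714 ± 0.066 and 0.096 ± 0.010 in U87MG cells and 0.447 ± 0.10 and 0.092 ± 0.009 in MDA-MB231 cells (limma adjusted p = 0.000631 and 0.0404). The first exon was the larger share with ASO-1570 in each of these but RDH11 in MDA-MB231 cells. PDE8A, which encodes a cyclic AMP phosphodiesterase, rose to 0.881 ± 0.023 with ASO-1570 in U87MG cells, against 0.473 ± 0.028 with ASO-CTL (limma adjusted p = 0.00106), and KIAA1191 fell to 0.291 ± 0.059, against 0.819 ± 0.007 (limma adjusted p = 0.000846). PDE8A and KIAA1191 were also called in MDA-MB231 cells at 200 nM, at 0.753 against 0.422 and 0.298 against 0.640, and all 5 were called in U87MG cells at 50 nM.

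The largest changes at 200 nM in U87MG cells included events in which the larger share passed from 1 exon to the other. TPP1, which encodes a lysosomal peptidase, had PSI values of 0.176, 0.128 and 0.157 with ASO-1570, against 0.973, 0.97 and 0.977 with ASO-CTL (limma adjusted p = 0.000117). RPS12, a ribosomal protein gene and snoRNA host, had 0.929 ± 0.006 with ASO-1570 and 0.183 ± 0.004 with ASO-CTL (SD, n = 3 each; limma adjusted p = 0.000113). SNAP23, which encodes the ubiquitous relative of SNAP25, had 0.752 ± 0.030 and 0.105 ± 0.019 (limma adjusted p = 0.000194). In all 3 the libraries of each group lay close together and the groups far apart. In xenograft tumours with ASO-CTL, the second exons of TPP1, RPS12 and SNAP23 were included at 1.000, 0.995 and 1.000 between the first and the downstream exon. An mRNA of these genes can thus hold both exons, and such a change in PSI need not be an exchange. PLSCR1, a phospholipid scramblase gene, had 0.831 ± 0.056 with ASO-1570 and 0.113 ± 0.025 with ASO-CTL (limma adjusted p = 0.00036), and in MDA-MB231 cells 0.374 ± 0.055 and 0.046 ± 0.009 (limma adjusted p = 0.0174). Falls of similar size were seen in TRAF3IP1, an intraflagellar transport gene, at 0.146 ± 0.062 with ASO-1570 and 0.858 ± 0.133 with ASO-CTL, and in ELOVL5, a fatty acid elongase gene, at 0.079 ± 0.137 and 0.779 ± 0.031 (limma adjusted p = 0.00253 and 0.00235). In xenograft tumours with ASO-CTL, the first and second exons as cassettes between the flanking exons were at 0.062 and 0.009 in TRAF3IP1. In ELOVL5 they were at 0.015 and 0.000. Where both exons are so rarely included, PSI says little of most mRNAs of the gene.

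GAS5, a long noncoding snoRNA host transcript, had PSI values of 0.9, 0.826 and 0.78 in U87MG cells with 200 nM ASO-1570, against 0.243, 0.231 and 0.243 with ASO-CTL, and 0.945, 0.97 and 0.983 in MDA-MB231 cells, against 0.345, 0.378 and 0.554. The groups were apart in both lines (limma adjusted p = 0.00064 and 0.0274). In the siRNA experiment the GAS5 means were 0.968 with siRNA-TRA2B and 0.97 with siRNA-CTL in U87MG cells and 0.994 and 0.990 in MDA-MB231 cells, nearer to ASO-1570 than to ASO-CTL. At 50 nM in U87MG cells MDM2, which encodes the ubiquitin ligase of p53, had 0.879 ± 0.042 with ASO-1570 and 0.188 ± 0.017 with ASO-CTL (SD, n = 3 each), and CDC16, an anaphase-promoting complex gene, had 0.133 ± 0.031 and 0.824 ± 0.019 (limma adjusted p = 0.000671 and 0.000543). CDC16 fell in MDA-MB231 cells too, to 0.145 ± 0.014 with ASO-1570, against 0.713 ± 0.080 with ASO-CTL (limma adjusted p = 0.0218). ELMOD3, which encodes a GTPase-activating protein, had 0.887 ± 0.043 with 50 nM ASO-1570 and 0.224 ± 0.047 with ASO-CTL in MDA-MB231 cells and 0.697 ± 0.062 and 0.263 ± 0.069 in U87MG cells (limma adjusted p = 0.00861 and 0.00557).

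The PSI of an exon pair can change through either exon, and the single cassette events of the same exons were used to see which. For 703 of the 1399 U87MG events with a higher first-exon share at 200 nM, the table also held both exons as cassettes. The second exon's inclusion was lower by at least 0.10 in 422 of them, the first exon's was higher by that much in 102, and in 222 neither had moved by 0.10. For 483 of the 1059 events with a lower share, the first exon was lower in 298, the second was higher in 75 and neither had moved in 141. At 50 nM the same held, with 212 and 56 of 329, and 177 and 47 of 264. Among the events that could be followed, a lower inclusion of 1 exon thus went with the change more often than a higher inclusion of its partner. Falls also outnumbered rises among all tested cassette events in U87MG cells at 200 nM, where 17.6% were called lower and 4.47% higher. The pattern is therefore not particular to exon pairs. The cassette values are counted from overlapping reads and are a description, not a separate test.

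**Figure D3:**
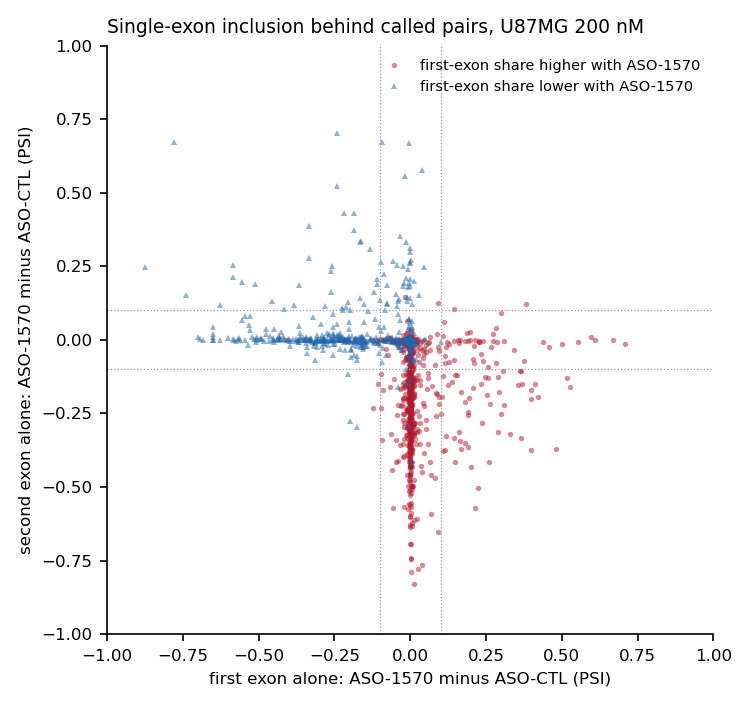
Change in inclusion (ASO-1570 minus ASO-CTL, 200 nM, U87MG cells) of the first exon on the x axis and of the second on the y axis, each as a single cassette, 1 point per called event, with dotted lines at a change of 0.10. Points spread mainly downwards along the y axis and leftwards along the x axis: the second exon was lower in 422 of 703 events with a higher first-exon share.

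The exons differed in GAA content by direction of change, by small amounts. In U87MG cells at 200 nM, events with a higher first-exon share had a median of 2.5 GAA per 100 bases in the first and 2.76 in the second exon, events with a lower share 2.67 and 2.27, and all tested events 2.41 and 2.38. At 50 nM these medians were 2.42 and 3.03, 2.82 and 2.24, and 2.56 and 2.51. The exon that lost share had the higher median in these 4 sets. In MDA-MB231 cells the medians at 200 nM were 2.56 and 3.05 for a higher and 2.72 and 2.21 for a lower share. At 50 nM, over 7 and 3 events, they were 3.23 and 1.92, where the exon that lost share had the lower median, and 2.82 and 2.56. These differences were not tested.

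As the siRNA-CTL libraries of the same lines received no antisense oligonucleotide, the PSI of both oligonucleotide arms was set beside them. This was chosen after the values were seen, the experiments were separate, and no test was made. Of 1414 called U87MG events at 200 nM with a siRNA-CTL value, ASO-1570 alone was at least 0.10 away from siRNA-CTL in 938 (66.3%), ASO-CTL alone in 146 (10.3%), both in 126 and neither in 204. Among all 9236 tested events with such a value these shares were 19.3% and 5.51%. Called events were selected for a difference of at least 0.10 between the arms, so higher shares among them are largely fixed by that selection. In U87MG cells at 50 nM, ASO-1570 alone was away in 626 of 796 (78.6%) and ASO-CTL alone in 61 (7.66%), against 14.2% and 2.7% of all tested. In MDA-MB231 cells at 200 nM these were 54 (73%) and 7 (9.46%) of 74, against 11.1% and 4.41%, and at 50 nM 3 (50%) and 2 (33.3%) of 6, against 5.67% and 2.66%. YY1AP1 in both lines and ARHGAP29 and GAS5 in MDA-MB231 cells were among the events in which the ASO-CTL libraries were the ones away from the siRNA experiment at 200 nM, while AFG1L was among those in which ASO-1570 was. RAPGEF2 had no siRNA-CTL value of this event. Experiment and arm cannot be told apart in this setting.

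**Figure D4:**
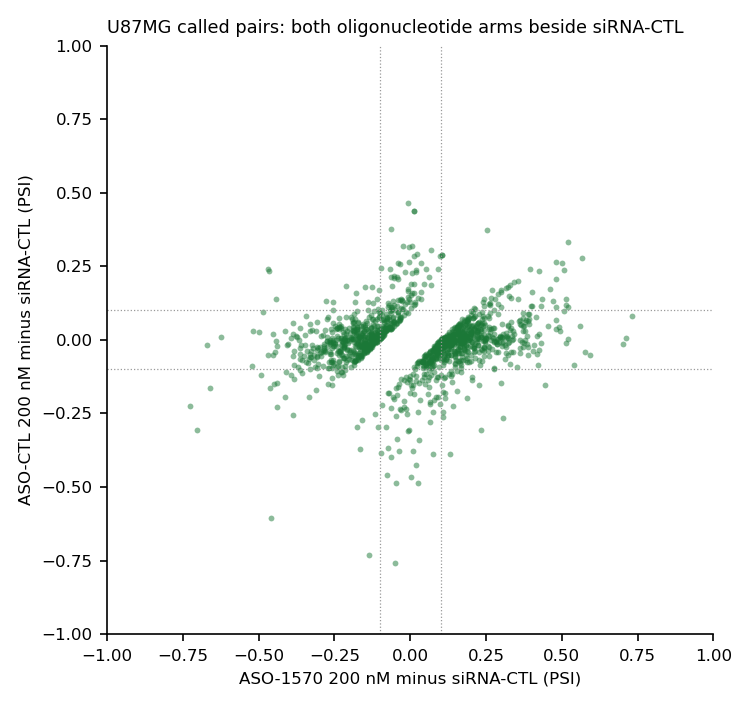
PSI of ASO-1570 minus siRNA-CTL on the x axis and of ASO-CTL minus siRNA-CTL on the y axis for called events in U87MG cells at 200 nM, 1 point per event. Most points lie along the x axis, where ASO-1570 alone departs (938 of 1414), and a smaller set along the y axis, where ASO-CTL alone departs (146 of 1414).

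In TRA2A, the paralog of TRA2B, 2 events were called. Event 1 pairs an exon of 90 bases (first, GRCh38, chr7:23531181-23531270, minus strand) with one of 301 bases (second, chr7:23522132-23522432). Its PSI was 0.578, 0.574 and 0.532 in U87MG cells with 200 nM ASO-1570, against 0.251, 0.281 and 0.312 with ASO-CTL, and 0.368, 0.299 and 0.332 in MDA-MB231 cells, against 0.17, 0.194 and 0.176. All ASO-1570 libraries were higher (limma adjusted p = 0.00178 and 0.0487), but leaving out any library lost the MDA-MB231 call. At 50 nM it was called in U87MG cells (0.442 ± 0.012 and 0.184 ± 0.028; SD, n = 3 each; limma adjusted p = 0.00292). With siRNA-TRA2B it was 0.355, 0.45 and 0.333 in U87MG cells, against 0.198, 0.206 and 0.163 with siRNA-CTL, and 0.194, 0.33 and 0.145 in MDA-MB231 cells, against 0.104, 0.084 and 0.068. The siRNA groups did not overlap and had the sign of the ASO-1570 comparisons, but limma's adjusted p was 0.455 and 0.767, and the exact permutation p was 0.1, the smallest that 3 against 3 libraries can give. The TRA2A gene rose in all 6 line comparisons, by 0.65 (MDA-MB231) and 1.45 (U87MG) on the log2 scale with 200 nM ASO-1570, 0.64 and 1.34 with 50 nM, and 1.05 and 1.55 with siRNA-TRA2B, and was at −0.05 in the xenograft. Event 2 fell in U87MG cells with 50 nM, to 0.096 ± 0.002 with ASO-1570, against 0.198 ± 0.007 with ASO-CTL (limma adjusted p = 0.0103), a call that held in 3 of the 6 fits that left out 1 library. With siRNA-TRA2B event 2 had 0.063, 0.064 and 0.068 in U87MG cells, against 0.168, 0.202 and 0.193 with siRNA-CTL, and 0.055, 0.054 and 0.064 in MDA-MB231 cells, against 0.145, 0.122 and 0.164. The siRNA groups did not overlap in either line, and the U87MG difference was called when all 4 groups of the siRNA table were put in 1 limma fit (adjusted p = 0.0247).

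Events of splicing regulators other than the SR and TRA2 proteins were called in U87MG cells alone, where most calls of all genes lay too. Of 56 tested events of 23 such genes, 18 (32.1%, 6 genes) were called there at 200 nM, 11 higher and 7 lower, against 14% of all mutually exclusive exon events and 19.6% of all event types. At 50 nM 5 of 51 (9.8%) were called, against 8.6% and 13.8%. In MDA-MB231 cells 0 of 75 and 0 of 32 were called, where 0.598% and 0.084% of all mutually exclusive exon events were. The median size of the PSI difference in U87MG cells at 200 nM was 0.0572 in the list, against 0.0417 over all mutually exclusive exon events. RBM39, which encodes an SR-like coactivator and splicing factor, held 9 of the 18, which share exons and reads. Its event 2 had PSI values of 0.138, 0.096 and 0.123 with ASO-1570, against 0.551, 0.568 and 0.553 with ASO-CTL (limma adjusted p = 0.00027). The ASO-1570 libraries were all far below the ASO-CTL libraries, whose level was also that of siRNA-TRA2B (0.562) and siRNA-CTL (0.562) in U87MG cells. In MDA-MB231 cells the same event had 0.373 with ASO-1570 and 0.562 with ASO-CTL (limma adjusted p = 0.0702). The heterogeneous nuclear ribonucleoprotein genes HNRNPK (events 1 and 2), HNRNPDL (4 events), HNRNPC, HNRNPU and HNRNPH3 held the other 9. HNRNPK event 2 had 0.553 ± 0.001 with ASO-1570 and 0.873 ± 0.006 with ASO-CTL at 200 nM and 0.527 ± 0.021 and 0.826 ± 0.019 at 50 nM (SD, n = 3 each; limma adjusted p = 0.0012 and 0.00454). HNRNPU, at 0.573 against 0.719, and HNRNPC, at 0.538 against 0.687, fell by less (limma adjusted p = 0.0113 and 0.0208), and their calls held in 4 and 2 of the 6 fits that left out 1 library.

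SR protein events were few. Of 14 SR and TRA2 genes, 11 had such events; 2 of 18 tested were called in U87MG cells at 200 nM (11.1%), 3 of 19 at 50 nM (15.8%), 1 of 22 in MDA-MB231 cells at 200 nM (4.55%) and 0 of 15 there at 50 nM. Over all mutually exclusive exon events these shares were 14%, 8.6%, 0.598% and 0.084%, and over all event types 19.6%, 13.8%, 1.42% and 0.199%, so that the list stands on 0 to 3 calls near these shares. All of the called ones lay in TRA2A and TRA2B. TRA2B event 1 had a PSI of 0.615 ± 0.017 with 200 nM ASO-1570 and 0.744 ± 0.007 with ASO-CTL in U87MG cells, and event 2 had 0.509 ± 0.028 with 50 nM ASO-1570 and 0.397 ± 0.010 with ASO-CTL (SD, n = 3 each; limma adjusted p = 0.0164 and 0.0328). Their calls held in 2 and 1 of the 6 fits that left out 1 library, with adjusted p of limma up to 0.0686 and 0.13.

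Of 12 genes listed as TRA2 targets, 5 of 27 tested events were called in U87MG cells at 200 nM (18.5%) and 9 of 30 at 50 nM (30%, 4 higher and 5 lower), against 1 of 36 in MDA-MB231 cells at 200 nM and 0 of 20 at 50 nM. TRA2A is in this list and in that of the SR and TRA2 genes, so its calls, the 1 in MDA-MB231 cells among them, are counted in both. In U87MG cells 14% and 8.6% of all mutually exclusive exon events and 19.6% and 13.8% of all event types were called at these doses. CD44, which encodes the hyaluronan receptor with a block of variable exons, held 3 of them at each dose in U87MG cells. CD44 event 1 had 0.471 ± 0.027 with 200 nM ASO-1570 and 0.746 ± 0.030 with ASO-CTL, and 0.528 ± 0.004 and 0.763 ± 0.028 at 50 nM (SD, n = 3 each; limma adjusted p = 0.00275 and 0.00775). CD44 events 2 and 3 rose to 0.198 and 0.307 with 200 nM ASO-1570, against 0.070 and 0.176 with ASO-CTL (limma adjusted p = 0.00321 and 0.00647). HIPK3, a kinase gene with a known TRA2-dependent exon, had event 1 at 0.473 ± 0.023 with 200 nM ASO-1570 and 0.607 ± 0.025 with ASO-CTL, and events 2 and 3, which share exons, at 0.222 and 0.255 with 50 nM ASO-1570, against 0.491 and 0.572 with ASO-CTL (limma adjusted p = 0.0149, 0.00416 and 0.00272). FN1, the fibronectin gene, fell to 0.561 ± 0.004 with 50 nM ASO-1570, against 0.675 ± 0.005 with ASO-CTL (limma adjusted p = 0.0372). In the 6 fits that left out 1 library the calls of FN1 and of HIPK3 event 1 held in 1 and 3, and those of HIPK3 events 2 and 3 in all. As these lists were drawn up with earlier results of the same data known, their counts are descriptions.

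Most textbook pairs were not called. Of 42 genes with pairs known as mutually exclusive, 39 had such events, 261 in all, but the annotation classed 167 of these as joined and 54 as exclusive. Of 43 tested in U87MG cells at 200 nM 10 were called (23.3%, 3 higher and 7 lower), and 4 of 44 at 50 nM (9.09%), against 0 of 33 and 0 of 30 in MDA-MB231 cells. Over all mutually exclusive exon events the shares were 14% and 8.6% in U87MG cells and 0.598% and 0.084% in MDA-MB231 cells, and over all event types 19.6%, 13.8%, 1.42% and 0.199%. The median size of the difference in U87MG cells at 200 nM was 0.0587, against 0.0417 over all mutually exclusive exon events. Among the 30 exclusive textbook events with a value in all 36 line libraries, 11 spanned a PSI range of less than 0.05. PKM, the pyruvate kinase gene, whose event was named after its values were seen, had group means of 0.011 to 0.077, close to the second exon in every group.

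SNAP25 had a higher share of the first of its like exons with ASO-1570 at both doses in U87MG cells, and the first exon was the larger share in both arms. PSI was 0.9, 0.907 and 0.901 with 200 nM ASO-1570, against 0.672, 0.665 and 0.703 with ASO-CTL, and 0.88, 0.924 and 0.886 with 50 nM ASO-1570, against 0.694, 0.76 and 0.723 (limma adjusted p = 0.00321 and 0.022). No ASO-1570 library was as low as the highest ASO-CTL library. In the siRNA experiment the U87MG means of SNAP25 were 0.933 with siRNA-TRA2B and 0.916 with siRNA-CTL, nearer to ASO-1570 than to ASO-CTL. In MDA-MB231 cells, where the gene had at most 0.924 CPM in the mean, against at least 30.6 in U87MG cells, PSI was 0.786 with 200 nM ASO-1570 and 0.966 with ASO-CTL (limma adjusted p = 0.194). DNM2 moved less and the other way, with 0.49, 0.45 and 0.486 for 200 nM ASO-1570, against 0.588, 0.581 and 0.569 for ASO-CTL, and 0.444, 0.435 and 0.472 for 50 nM, against 0.55, 0.539 and 0.564 (limma adjusted p = 0.0215 and 0.0412). These groups did not overlap either, but the DNM2 differences of −0.104 and −0.101 are just past the minimum of 0.10. Both DNM2 calls were lost when any of several libraries was left out, ASO-CTL replicates 1, 2 and 3 among them, and so was the 50 nM call of SNAP25.

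At 200 nM the muscle-type tropomyosin gene TPM2 had 0.553 ± 0.017 with ASO-1570 and 0.666 ± 0.015 with ASO-CTL in U87MG cells, and the MEF2 transcription factor genes MEF2C and MEF2D had 0.706 ± 0.083 and 0.919 ± 0.014, and 0.405 ± 0.045 and 0.526 ± 0.037 (SD, n = 3 each; limma adjusted p = 0.0215, 0.0226 and 0.0438). All 3 fell, but the calls of TPM2, MEF2C and MEF2D held in 2, 2 and 0 of the 6 fits that left out 1 library. Of the exclusive pairs at least 60% identical, 13 of 54 tested (24.1%) were called in U87MG cells at 200 nM, among them SNAP25, DNM2, TPM2 and MEF2C, and 7 of 48 (14.6%) at 50 nM, and 0 of 47 and 0 of 40 in MDA-MB231 cells. In U87MG cells these shares are near those of all exclusive pairs (20% and 12%) and of all event types (19.6% and 13.8%).

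**Figure D5:**
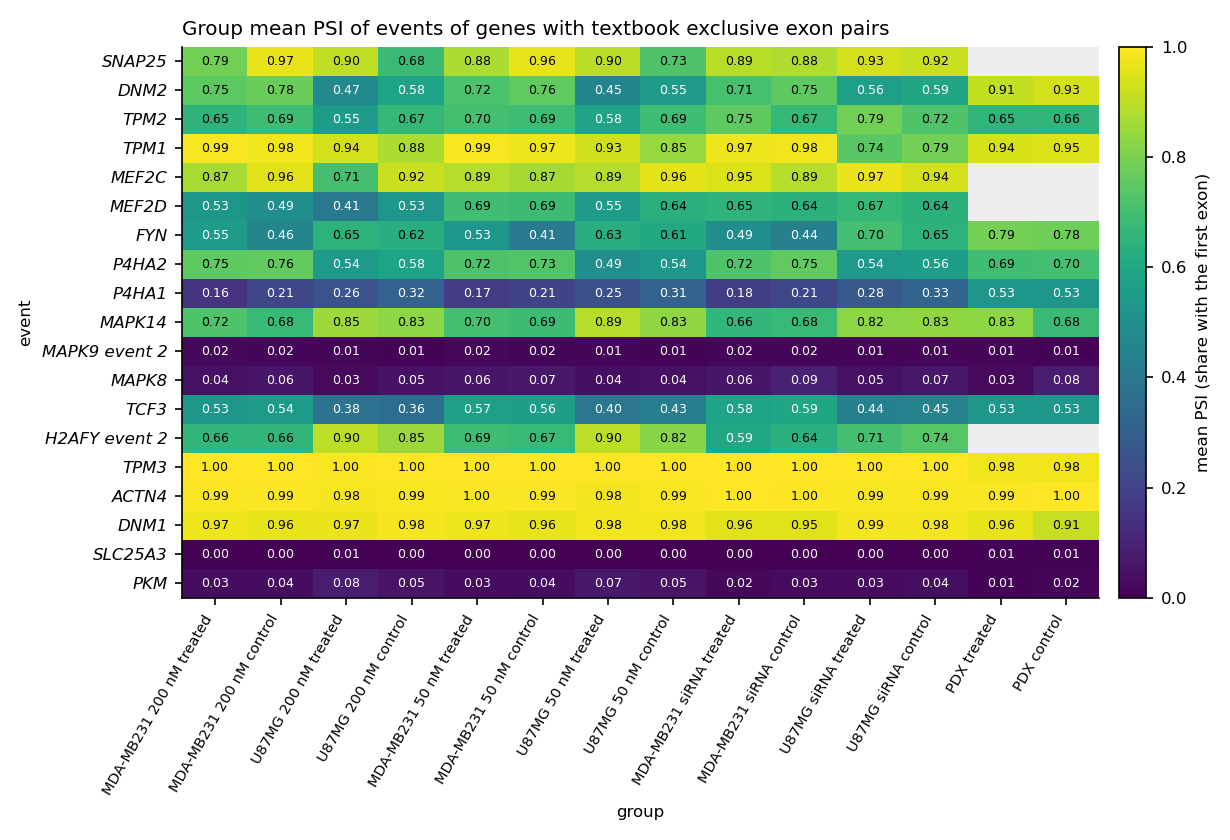
Mean PSI (color, from 0 for the second exon to 1 for the first) of 19 textbook events in the 14 groups, with each treated group left of its control. SNAP25 in U87MG cells reads 0.90 with 200 nM ASO-1570 and 0.68 with ASO-CTL, and DNM2 0.475 and 0.579, while most rows hold nearly 1 color within a line.

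The effects of ASO-1570 on 977 of 22982 tested events (4.25%, 645 genes) differed between the lines at 200 nM by limma's interaction test, against 8.08% over all event types, and on 413 of 16721 (2.47%) at 50 nM, against 4.9%. The U87MG effect was the larger in 914 and 391 of these. Effects of at least 0.10 in opposite directions were seen in 17 and 8. For siRNA-TRA2B limma called 0 of 10697, against 0.00571% of all event types, and 384 (3.59%) had an unadjusted p under 0.05, against 5.61%. INPP1, an inositol phosphatase gene, differed most among the 5 with the smallest p apart from AC087632.2: its effect at 200 nM was 0.028 in MDA-MB231 cells and 0.539 in U87MG cells (difference −0.511, limma adjusted p = 0.000384). For ZNF512, a zinc finger gene, the effects were 0.034 and 0.273 (difference −0.239, limma adjusted p = 0.000142), for DTNBP1, the dysbindin gene, 0.004 and 0.262 (difference −0.258, limma adjusted p = 0.000353). At 50 nM OMA1, a mitochondrial protease gene, had effects of −0.050 and −0.371 (difference 0.321, limma adjusted p = 0.00181), and ARHGEF7, a guanine nucleotide exchange factor gene, −0.069 and −0.380 (difference 0.312, limma adjusted p = 0.00199). The interaction counts were 708 to 1213 and 168 to 763 with 1 library left out, the 50 nM extremes being without MDA-MB231 ASO-CTL replicate 2 and without U87MG ASO-1570 replicate 3.

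No event was called with siRNA-TRA2B. With limma 0 of 15236 tested events were called in MDA-MB231 cells and 0 of 14735 in U87MG cells, and 0% of all event types were called in both. At an unadjusted p under 0.05 there were 529 (3.47%) and 534 (3.62%), against 5.89% and 5.35% over all event types. When all 4 groups of the table were put in 1 fit, limma called 3 and 5 events, TRA2A event 2 in U87MG cells among them. CCDC112, a coiled-coil protein gene, was called in both lines in that fit (adjusted p = 0.0397 in MDA-MB231 cells and 0.0166 in U87MG cells), and was singled out after its values were seen. Its PSI was 0.517, 0.52 and 0.505 with siRNA-TRA2B in MDA-MB231 cells, against 0.72, 0.68 and 0.664 with siRNA-CTL, and 0.493, 0.492 and 0.471 in U87MG cells, against 0.683, 0.703 and 0.688. The groups were apart in both lines. ASO-1570 moved it in the same direction, to 0.329 at 200 nM, against 0.588 with ASO-CTL, and 0.313 at 50 nM, against 0.630, in U87MG cells (limma adjusted p = 0.00759 and 0.00757).

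NGLY1, the gene of a cytosolic glycanase, was called by that fit in MDA-MB231 cells alone (adjusted p = 0.0124) and was likewise singled out afterwards. Its PSI was 0.316, 0.303 and 0.362 with siRNA-TRA2B in MDA-MB231 cells, against 0.127, 0.112 and 0.119 with siRNA-CTL, and 0.185, 0.152 and 0.207 in U87MG cells, against 0.043, 0.056 and 0.056. All siRNA-TRA2B libraries were higher in both lines, with limma adjusted p = 0.257 and 0.43 in the comparisons of 2 groups. The ASO groups of MDA-MB231 cells had means of 0.125 to 0.164 and those of U87MG cells 0.049 to 0.062, with ASO-1570 and ASO-CTL both within these ranges.

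In the xenograft limma called 0 of 16284 tested events, against 0% of all event types. At an unadjusted p under 0.05 there were 918 (5.64%), against 4.14% over all event types, and the TRA2B gene did not pass edgeR's test there. The median size of the PSI difference was 0.046, against 0.0277 and 0.0417 in MDA-MB231 and U87MG cells at 200 nM. Leaving out the 3 ASO-1570 and 1 ASO-CTL libraries with over 50% mitochondrial counts, an alternative added after seeing the data, also gave 0 calls, with 335 (2.05%) at an unadjusted p under 0.05. Fewer cells of a type and less RNA per cell cannot be told apart in these bulk samples. Of the 5 events called in all oligonucleotide comparisons of the lines, RAPGEF2 and ARHGAP29 had no value there and the others overlapped between the arms: SCMH1 had a mean of 0.235 with ASO-1570 and 0.317 with ASO-CTL, and AFG1L 0.413 (4 libraries with a value) and 0.347.

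Host genes were counted by level whether or not their event was called in the comparison, and level was not tested against event. Of 75 host genes of the named events, 63 passed edgeR's adjusted p of 0.05 in U87MG cells at 200 nM (29 higher, 34 lower; 49.7% of all genes passed) and 59 at 50 nM (54.6% of all genes), and 36 (25.2%) and 35 (23.3%) in MDA-MB231 cells. With siRNA-TRA2B 10 (4.2% of all genes) in U87MG cells and 8 (7.24%) in MDA-MB231 cells passed, and 0 of 72 in the xenograft (0% of all genes). RBM39 was higher in U87MG cells by 1.04 at 200 nM and 0.78 at 50 nM on the log2 scale and changed by 0.05 and 0.02 in MDA-MB231 cells. SCMH1 was lower in U87MG cells, with log2 fold changes of −0.79 and −0.81. PSI is a share within a gene, so these levels do not enter it, but a lower level leaves fewer reads behind a PSI.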

How the data were processed

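RNA-seq of 46 libraries in 14 groups (stranded mRNA kit and 151-base paired reads, per the labels' protocols) was used. The authors deposited PSI fractions per event and library, made with rMATS per the labels, and raw gene counts; read support, rMATS version and settings are not given in the sources used here. The submitters' processing notes name FastQC, MultiQC, Trimmomatic, STAR and StringTie, and the builds GRCh38 and hg38.

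For each of 7 comparisons, limma 3.58.1 with a mean-variance trend was fitted to PSI over all event types with a value in every library of both groups and a PSI range of at least 0.05. Benjamini-Hochberg adjustment ran over all of them; an event was called at adjusted p under 0.05 and a mean difference of at least 0.10. Differences between lines were tested as interactions. Gene counts were tested with edgeR 4.0.16 (quasi-likelihood, R 4.3.3) and, as an alternative, DESeq2 1.42.0. Exact permutation tests are two-sided, with a smallest possible p of 0.1 for 3 against 3 and 0.00794 for 5 against 5. Exons were classed by GENCODE 29 transcripts, and exon pairs aligned with Biopython 1.88; 60340 of 60668 gene IDs had a symbol. The fits were tested on simulated data. The depth behind a PSI is unknown, so no counting interval is given.

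Named events are, per comparison, up to 6 called rises and falls with the largest change, 1 per gene; up to 12 called in the same direction in 2 or more comparisons; the most variable event of up to 12 textbook genes; called events of the SR protein, other splicing factor and TRA2 target lists; and the 5 smallest p of each interaction. The rises and falls with the largest change were taken only from called events whose groups did not overlap. Exceptions are marked as chosen after their values were seen. One event under this rule is not reported. Members and lists were chosen with earlier results of these data known. Alternatives left out each library, changed the PSI filters, the minimum difference, the scale and the groups in the fit, and added the replicate number as a block.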

Additional observations from a re-analysis of the deposited data

Results flagged for a closer look

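The effect of ASO-1570 differed between MDA-MB231 and U87MG cells for 977 events at 200 nM and 413 at 50 nM by limma's interaction test. Among the 5 with the smallest p at 200 nM, the effect in MDA-MB231 cells minus that in U87MG cells was −0.239 for ZNF512, 0.514 for AC087632.2 (effects of 0.013 and −0.501), −0.228 for ANKRD11 (0.010 and 0.237), −0.258 for DTNBP1 and −0.511 for INPP1. At 50 nM it was −0.233 for INPP5K (−0.016 and 0.217), 0.321 for OMA1, 0.312 for ARHGEF7, 0.823 for AC022784.1 (0.003 and −0.820) and 0.185 for GIT2 (0.109 and −0.076). GIT2, which encodes a GTPase-activating protein for ARF proteins, is the one of these 10 whose effects had opposite signs with both above 0.05 in size. For the other 9 the effect in U87MG cells was the larger.

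Among 101 xenograft groups with 4 or 5 values (the named events, the TRA2B level and the mitochondrial share), 17 held a library far from the others by Dixon's criterion. Chance gives about 1 in 20 for normally distributed values. PSI is bounded and often tied at 0 or 1, so that rate does not apply to it and 17 cannot be read as an excess. All 17 were PSI values. The ASO-1570 group held 10 of them, and in 5 of these a single library was high. In RPS12 that library had 0.354, against 0.025 to 0.088 in the others, in TRA2A event 1 it had 0.373, against 0.037 to 0.097, and in CD44 event 2 it had 0.222, against 0.042 to 0.074. In ARHGEF7 it had 0.498, against at most 0.041, and in MAPK9 event 2, of the JNK2 gene, 0.067, against at most 0.002. In the other ASO-1570 groups the lowest library stood apart, with 0.104 in RBM23 (0.881 or more in the others), 0.099 in MAPK9 event 1 (0.369 to 0.467), 0.744 in NPRL3, 0.921 in INPP1 and 0.989 in ACTN4. In ASO-CTL tumours the RPS12 group held a high library at 0.185, against 0.062 to 0.094. The lowest ASO-CTL library stood apart at 0.116 in LINC00174 (0.571 to 0.754 in the others), 0.045 in ELMOD3 (0.101 to 0.119), 0.647 in AC087632.2 (0.945 or more), 0.967 in RBM23, 0.921 in INPP1 and 0.994 in ACTN4.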

How the results depend on the processing

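The 140 PSI differences printed or drawn as called kept their sign under every alternative run, but this outcome was fixed in advance. The groups of a called event did not overlap, so leaving out a library cannot reverse its difference. The other alternatives used the same mean differences. With 1 library left out 575 of 840 values of these differences kept their call and 265 lost it. The other alternatives cost 35 calls (minimum difference 0.20), 20 (no minimum range of PSI), 10 (log-odds of PSI), 3 (missing values kept) and 2 (all 4 groups in 1 fit). Of 1044 host gene values under DESeq2 or its size factors 1007 kept their side, 8 lost the call, 29 gained one and 0 reversed, and all 74 alternative TRA2B values kept theirs. The counts of called events moved more. In MDA-MB231 cells at 200 nM they were 51 with no minimum range, 237 on log-odds, 533 with all groups in 1 fit and 4 to 214 with 1 library left out; at 50 nM they were 5, 25, 129 and 0 to 29. In U87MG cells they were 861 and 488 at a minimum difference of 0.20 (200 and 50 nM), and 1540 to 2472 and 395 to 1362 with 1 library left out. With siRNA-TRA2B there was 1 call in MDA-MB231 cells with missing values kept, 3 with all groups in 1 fit and 0 to 2 with 1 library left out; U87MG cells had 2, 5 and 0 to 1, and 2 on log-odds. The xenograft had 0 in all of these. Differences between lines numbered 708 to 1213 at 200 nM and 168 to 763 at 50 nM with 1 library left out and 263 on log-odds at 50 nM; with siRNA there was 1 on log-odds and 0 to 1 with 1 library left out. The cause was not tested.

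Same-numbered libraries did not deviate together in the lines (correlations −0.00871 to 0.0267), nor in all pairs of the xenograft (−0.174 to 0.137), so the numbers were not taken as a pairing. With the replicate block the counts were 0 (MDA-MB231) and 1333 (U87MG) at 200 nM and 0 and 301 at 50 nM, 357 and 0 for the differences between lines at these doses, and 62 of the 140 named calls were lost; not every library correlated best with its own number.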
